A study of Arabidopsis thaliana with 27 samples.

Results

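The early light-induced protein genes ELIP1 (AT3G22840) and ELIP2 (AT4G14690) and the one-helix protein genes OHP1 (AT5G02120, named OHP in the deposited table) and OHP2 (AT1G34000) are 4 of 33039 genes measured in Arabidopsis thaliana seedlings. They were picked by gene ID with earlier results of these libraries known, so their levels and their differences between groups are given as descriptions, with no test. All 4 were found, and all 4 had at least 1 TPM (transcript abundance corrected for gene length and scaled to a fixed total per library) in at least 3 libraries.

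Messenger RNA of seedlings was sequenced in 27 libraries, 3 for each of 3 genotypes at 16, 22 and 29 °C. The wild type was Columbia. One mutant carries the change ELF3S364P, a proline in place of a serine in EARLY FLOWERING 3 (ELF3), the scaffold of the evening complex of the circadian clock. The other is a T-DNA insertion mutant of ELF3, labelled ELF3 T-insert. They are called the S364P line and the insertion line below, and each is a single line in the labels. The deposited design text treats the changed residue as a phosphorylation site and asks how it bears on flowering time and hypocotyl length. The protocol lists Zeitgeber times of 8, 16 and 24 h beside 16, 22 and 29 °C in that order. A difference between temperatures and a difference between times of day therefore cannot be told apart, while genotypes set side by side at 1 temperature share both. Each temperature has only 1 time of day, so between genotypes a shift in daily timing and a change in level cannot be told apart. The labels do not place the insertion within ELF3. ELF3 transcript was present in the insertion line at 32.3 ± 1.6, 35.3 ± 3.8 and 39.7 ± 2.0 TPM (mean ± SD, n = 3) at 16, 22 and 29 °C, against 27.1 ± 2.0, 20.4 ± 2.5 and 40.3 ± 1.4 TPM in wild type, so the level of ELF3 does not check that label.

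The 4 genes belong to the light-harvesting chlorophyll a/b-binding (LHC) superfamily of thylakoid proteins. ELIPs have 3 membrane helices, appear transiently when plants meet strong light, cold or ultraviolet-B (UV-B) light or when seedlings turn green, and are thought to bind freed pigments and so limit photooxidation. One-helix proteins have a single membrane helix; OHP1 and OHP2 form a complex with the chloroplast protein HCF244 that is needed to make the D1 core protein of photosystem II and assemble it with chlorophyll. In light signalling, the factor HY5 and its homologue HYH, both stabilised in light, activate many photoprotective genes, the ELIP genes among them.

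The deposited table names no genome build. Its gene length equalled the length of an annotated transcript of the TAIR10.1 RefSeq annotation for 32373 of 32547 shared gene IDs (99.5%), the 4 genes included, so gene models and promoters are given from TAIR10.1. ELIP1 lies on chr3:8084405-8085669 on the minus strand, with 3 exons and 195 codons. ELIP2 lies on chr4:8418242-8419325 on the plus strand, with 3 exons and 193 codons. OHP1 lies on chr5:419091-419773 on the plus strand, with 3 exons and 110 codons. OHP2 lies on chr1:12357910-12358966 on the minus strand, with 2 exons and 172 codons. The ELIP1 and ELIP2 coding sequences were identical at 445 of 564 aligned bases (78.9%), and the longest run of bases their transcripts share is 26, which bears on how well the authors' counting could keep reads of the pair apart.

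In TPM, the means of all 4 genes had the same order of genotypes at each temperature. Wild type came first, the S364P line next and the insertion line last. Libraries of wild type and the S364P line overlapped at 16 °C for both OHP genes. Those of the mutants overlapped at 29 °C for all 4 genes and at 22 °C for ELIP2. With median-of-ratios scaling the OHP1 order at 16 °C turned, at 602 in wild type and 603 in the S364P line. Because of the shared order of TPM means, the 250 bases before each annotated start are shown. Each is written 5′ to 3′ on the gene's own strand, and capitals mark matches to the G-box CACGTG, bound by HY5 and by PIF factors, or to the CCA1-binding site AAAAATCT. The windows are chr3:8085670-8085919 (minus strand) for ELIP1, chr4:8417992-8418241 (plus strand) for ELIP2, chr5:418841-419090 (plus strand) for OHP1 and chr1:12358967-12359216 (minus strand) for OHP2.
ELIP1: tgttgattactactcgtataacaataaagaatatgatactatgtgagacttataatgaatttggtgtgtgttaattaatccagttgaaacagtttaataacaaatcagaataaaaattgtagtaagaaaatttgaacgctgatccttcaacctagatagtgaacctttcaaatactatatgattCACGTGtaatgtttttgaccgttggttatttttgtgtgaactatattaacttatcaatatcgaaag
ELIP2: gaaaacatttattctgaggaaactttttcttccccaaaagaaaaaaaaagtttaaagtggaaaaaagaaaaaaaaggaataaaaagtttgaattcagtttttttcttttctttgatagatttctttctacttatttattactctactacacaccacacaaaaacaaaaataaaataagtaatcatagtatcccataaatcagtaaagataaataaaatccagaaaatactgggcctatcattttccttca
OHP1: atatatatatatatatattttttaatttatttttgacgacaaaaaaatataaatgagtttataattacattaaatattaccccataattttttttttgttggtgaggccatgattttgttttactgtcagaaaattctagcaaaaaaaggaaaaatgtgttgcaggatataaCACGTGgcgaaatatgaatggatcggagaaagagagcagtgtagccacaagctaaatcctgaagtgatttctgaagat
OHP2: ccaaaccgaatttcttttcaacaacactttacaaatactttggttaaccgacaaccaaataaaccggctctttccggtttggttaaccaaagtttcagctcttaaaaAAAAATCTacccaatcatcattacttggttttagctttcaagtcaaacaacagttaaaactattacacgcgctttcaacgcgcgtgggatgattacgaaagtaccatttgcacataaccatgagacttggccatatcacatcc

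Matches were searched on both strands for 9 motifs. The G-box CACGTG was present once before ELIP1, at position -66 from the start, and once before OHP1, at -78, and it is present in 6.49% of 27443 promoters of the same length. Its core ACGT, which lies inside every G-box, is present in 44.1% of promoters. The CCA1-binding site AAAAATCT was present before OHP2 at -143 and is present in 6.69% of promoters. ELIP1 also had the I-box core GATAAG at -17 (12.3% of promoters), OHP1 the heat shock element core GAANNTTC at -121 (9.55%) and OHP2 the cold-response core CCGAC at -203 (12.0%). ELIP2 had a match to none of the 9. The C-box GACGTC (2.27% of promoters), the evening element AAAATATCT (2.36%) and the LUX-binding site GATACG (4.60%) had no match in any of the 4 windows. A match says that these letters are in the window and is not evidence of a binding site.

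TPM keeps no sequencing depth, so library depth is unknown and counting intervals are left out. Between 23430 and 23854 genes per library were above 0. Across genes, r was 0.986 to 0.993 between the 27 pairs of replicates and 0.932 to 0.991 between the 324 other pairs. The labels do not say whether replicates were separate plantings, so p-values measure the spread between these libraries, which may be technical. In whole seedlings, fewer cells of a type and less RNA per cell cannot be told apart. Of 17 root markers 0 were at 0 TPM in any group mean; their mean log2(TPM + 1) lay between 3.82 and 4.11 in the 9 libraries at 16 °C. At 22 °C it lay between 3.48 and 4.1 in wild type, 2.52 and 3.04 in the S364P line, and 2.79 and 3.18 in the insertion line. At 29 °C it lay between 3.16 and 3.83, 2.46 and 3.26, and 3.05 and 3.42 in the same order. Root markers were thus lower in both mutants at 22 °C, while the groups overlapped at 29 °C with lower levels in the S364P line, and their part in the differences given below for those temperatures was not tested.

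The ELIP genes had their highest levels at 16 °C and were at 2.59 TPM or less in every library at 29 °C. ELIP1 was at 94.3, 103 and 112 TPM in the 3 wild-type libraries at 16 °C, at 57.8, 66.2 and 72.2 TPM in the S364P line, and at 29.8, 36.7 and 43.3 TPM in the insertion line. The 3 genotypes did not overlap, with wild type highest and the insertion line lowest. At 22 °C ELIP1 was at 2.21, 2.83 and 4.06 TPM in wild type, 1.57, 1.59 and 1.63 TPM in the S364P line, and 0.65, 0.86 and 0.95 TPM in the insertion line. The order of the genotypes was the same, again without overlap, at levels 34.0 times lower in wild type than at 16 °C. At 29 °C ELIP1 was at 0.91, 1.25 and 1.47 TPM in wild type, 0.58, 0.65 and 0.73 TPM in the S364P line, and 0.57, 0.58 and 0.66 TPM in the insertion line. Wild type lay above both mutants there, and the mutants overlapped.

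The genotype means of ELIP2 had the same order at each temperature, with wild type further above each mutant. At 16 °C it was at 156, 167 and 181 TPM in wild type, 75.5, 81.5 and 101 TPM in the S364P line, and 23.2, 23.5 and 31.3 TPM in the insertion line, without overlap. At 22 °C it was at 14.1, 15.0 and 18.0 TPM in wild type, 1.74, 1.92 and 2.81 TPM in the S364P line, and 0.69, 0.87 and 1.84 TPM in the insertion line. Wild type stood well apart there: its mean was 7.29 times that of the S364P line and 13.9 times that of the insertion line, while the mutants overlapped through 1 insertion-line library. At 29 °C ELIP2 was at 2.44, 2.55 and 2.59 TPM in wild type, 0.61, 0.68 and 1.21 TPM in the S364P line, and 0.61, 0.71 and 0.98 TPM in the insertion line. Both mutants lay below every wild-type library and overlapped each other.

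**Figure D1:**
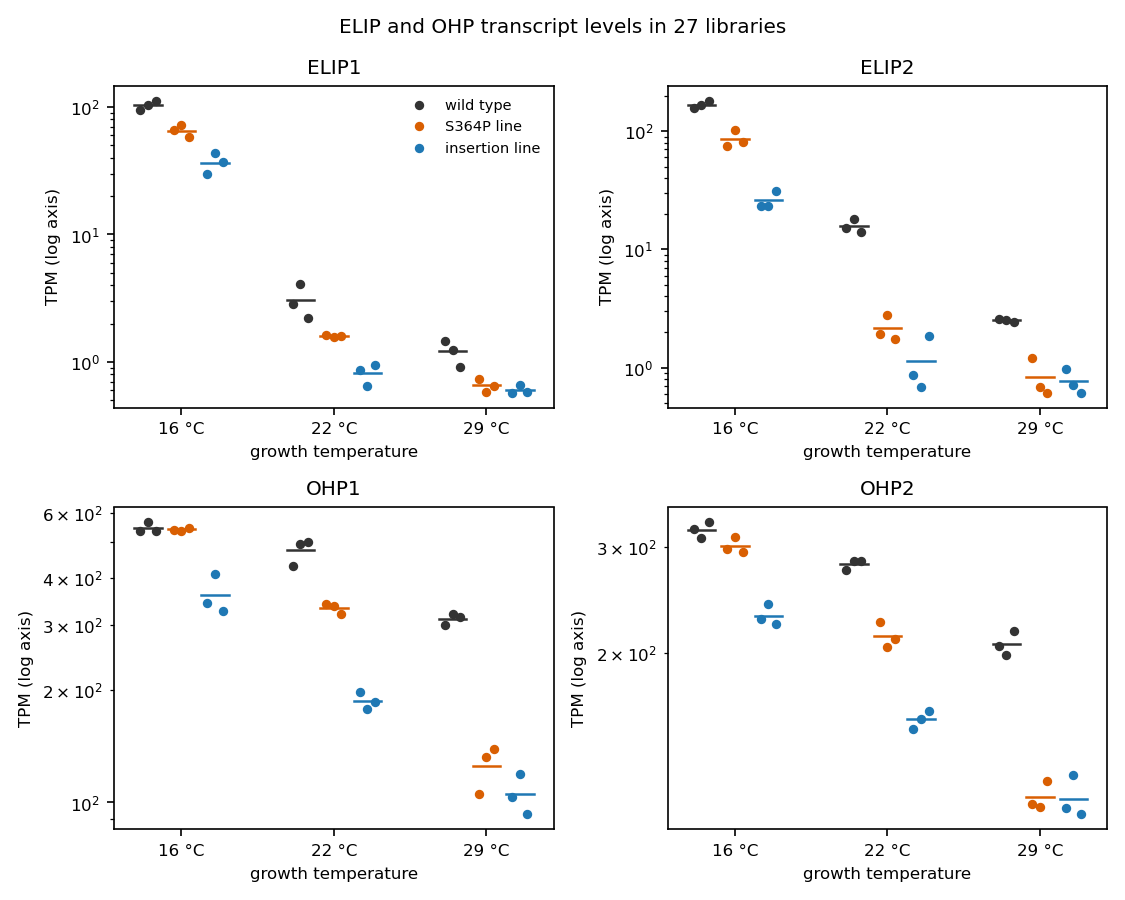
Transcript levels of ELIP1, ELIP2, OHP1 and OHP2 in TPM on a log axis (the axes of the 4 panels differ), by growth temperature and genotype; each point is 1 library and each line the mean of 3 libraries. ELIP1 goes from 94.3 to 112 TPM in wild type at 16 °C down to 0.57 to 0.66 TPM in the insertion line at 29 °C, while OHP1 and OHP2 are at 92.8 TPM or more in every library and the genotypes spread apart at the warmer temperatures.

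The OHP genes were abundant in every group: 0.823 to 5.90% of the genes in a library had a higher TPM than OHP1, and 1.46 to 5.06% a higher TPM than OHP2. OHP1 was at 537, 537 and 566 TPM in wild type at 16 °C, 536, 540 and 547 TPM in the S364P line, and 328, 343 and 411 TPM in the insertion line. The S364P line overlapped wild type, and the insertion line lay below both. At 22 °C OHP1 was at 430, 494 and 502 TPM in wild type, 320, 338 and 342 TPM in the S364P line, and 178, 186 and 198 TPM in the insertion line. The 3 genotypes no longer overlapped. At 29 °C it was at 299, 314 and 321 TPM in wild type, 106, 132 and 139 TPM in the S364P line, and 92.8, 104 and 119 TPM in the insertion line, where the mutants overlapped each other and lay below wild type.

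OHP2 followed OHP1 in every one of these relations. It was at 310, 322 and 330 TPM in wild type at 16 °C, 295, 298 and 312 TPM in the S364P line, and 223, 228 and 241 TPM in the insertion line. The S364P line overlapped wild type at this temperature too. At 22 °C OHP2 was at 275, 284 and 285 TPM in wild type, 205, 211 and 226 TPM in the S364P line, and 150, 155 and 160 TPM in the insertion line. At 29 °C it was at 199, 205 and 217 TPM in wild type, 111, 112 and 123 TPM in the S364P line, and 108, 110 and 125 TPM in the insertion line. The genotypes were apart at 22 °C, and at 29 °C only the mutants overlapped.

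Ordered by mean level, the 9 groups ran the same way for OHP1 and OHP2: wild type at 16 °C, the S364P line at 16 °C, wild type at 22 °C, the insertion line at 16 °C, the S364P line at 22 °C, wild type at 29 °C, the insertion line at 22 °C, the S364P line at 29 °C and the insertion line at 29 °C. Neighbours with overlapping libraries were, for both genes, the first 2 groups, the insertion line at 16 °C and the S364P line at 22 °C, the latter and wild type at 29 °C, and the last 2 groups. For both ELIP genes the first 4 places went to the 3 genotypes at 16 °C and to wild type at 22 °C. No neighbours among the first 5 ELIP2 groups overlapped, and from wild type at 29 °C downward each ELIP2 group overlapped the next. ELIP1 had the S364P line at 22 °C in the place after these 4, and overlapping neighbours from wild type at 29 °C downward.

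Differences from wild type were read on the log2(TPM + 1) scale from a limma model fitted to all 21396 genes that reached 1 TPM in 3 or more libraries, and each is given ± its SE. The added 1 shrinks differences of genes near 1 TPM, so the ELIP values at 22 and 29 °C understate the ratio of the TPM means; with a pseudocount of 5 all of them moved by over 1.5 times, and with 0.1 those at 29 °C and that of ELIP1 in the insertion line at 22 °C did, as given in the closing section. In the insertion line at 16 °C the difference was -1.48 ± 0.14 for ELIP1, -2.66 ± 0.17 for ELIP2, -0.61 ± 0.10 for OHP1 and -0.47 ± 0.06 for OHP2. The insertion-line libraries of all 4 genes lay below the 3 wild-type libraries, as they did for 18.1% of all tested genes, and nothing is read from that count because the genes were picked with these values known. ELIP2 had the largest gap of the 4, a wild-type mean 6.47 times that of the insertion line.

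At 22 °C the insertion line differed from wild type by -1.13 ± 0.14 for ELIP1, -3.00 ± 0.17 for ELIP2, -1.34 ± 0.10 for OHP1 and -0.86 ± 0.06 for OHP2. All 4 again lay wholly below wild type, beside 21.5% of tested genes. The wild-type library with the highest ELIP1 level, replicate 2, set part of that value: without it the ELIP1 difference was -0.95. At 29 °C the differences were -0.46 ± 0.14 for ELIP1, -1.0 ± 0.17 for ELIP2, -1.56 ± 0.10 for OHP1 and -0.85 ± 0.06 for OHP2, with all 4 genes below wild type in every library beside 15.9% of tested genes. ELIP2 was thus the gene furthest from wild type at 16 and 22 °C. At 29 °C the first place depended on the scale. It went to OHP1 on log2(TPM + 1), but to ELIP2 by the ratio of wild-type to insertion-line means (3.30 for ELIP2 and 2.96 for OHP1) and with a pseudocount of 0.1 (-1.62 for ELIP2 and -1.57 for OHP1). Wild type itself had 2.53 ± 0.08 TPM of ELIP2 there (SD, n = 3).

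The S364P line differed from wild type less than the insertion line did at 16 °C. There the difference was -0.65 ± 0.14 for ELIP1 and -0.96 ± 0.17 for ELIP2, with every library below wild type, and -0.01 ± 0.10 for OHP1 and -0.09 ± 0.06 for OHP2, whose libraries overlapped wild type. The ELIP genes were therefore lower and the OHP genes were not separable from wild type at this temperature; 13.5% of tested genes had all S364P libraries below wild type. The OHP1 difference is so close to 0 that its sign turned with median-of-ratios scaling, with quantile normalization and without wild-type replicate 2 (0.01).

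At 22 °C the S364P difference was -0.61 ± 0.14 for ELIP1, -2.41 ± 0.17 for ELIP2, -0.51 ± 0.10 for OHP1 and -0.39 ± 0.06 for OHP2. All 4 lay below wild type in every library, as 27% of tested genes did; without replicate 2 of wild type the ELIP1 difference was -0.43. At 29 °C it was -0.41 ± 0.14 for ELIP1, -0.96 ± 0.17 for ELIP2, -1.31 ± 0.10 for OHP1 and -0.84 ± 0.06 for OHP2, all below wild type beside 15.4% of tested genes. The OHP differences of the S364P line were thus larger in size at each warmer temperature, while ELIP2 had its largest at 22 °C.

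**Figure D2:**
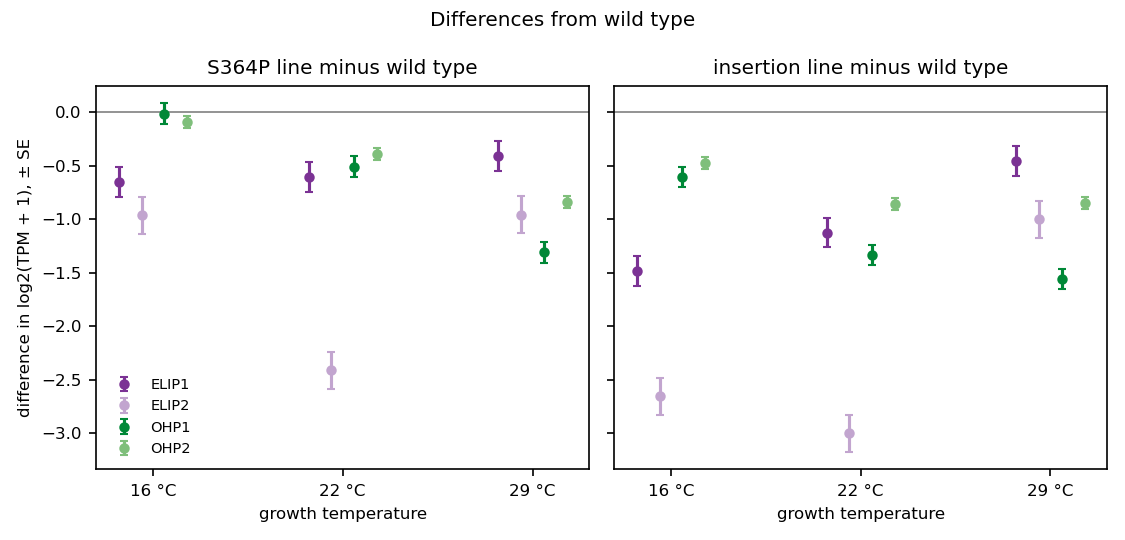
Difference from wild type in log2(TPM + 1) ± SE for ELIP1, ELIP2, OHP1 and OHP2 at 16, 22 and 29 °C, in the S364P line (left) and the insertion line (right), 3 libraries a group; both lines are set against the same wild-type libraries. ELIP2 reaches -2.41 and -3.00 at 22 °C, and OHP1 goes from -0.01 to -1.31 in the S364P line and from -0.61 to -1.56 in the insertion line between 16 and 29 °C.

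Both mutants are set against the same wild-type libraries, so their differences from it are not independent, and the lines were also set against each other. At 16 °C the S364P line was above the insertion line by 0.83 ± 0.14 for ELIP1, 1.69 ± 0.17 for ELIP2, 0.59 ± 0.10 for OHP1 and 0.38 ± 0.06 for OHP2, with no overlap for any of the 4, beside 13.1% of tested genes. At 22 °C it was above by 0.52 ± 0.14, 0.59 ± 0.17, 0.83 ± 0.10 and 0.46 ± 0.06 in the same order, and the ELIP2 libraries overlapped; 9.98% of tested genes had all S364P libraries above the insertion line. At 29 °C the differences were 0.04 ± 0.14, 0.04 ± 0.17, 0.25 ± 0.10 and 0.01 ± 0.06, and the libraries of all 4 genes overlapped, beside 8.73% of tested genes with all S364P libraries higher. The mutants thus had separate levels at 16 °C and overlapping levels at 29 °C.

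The change of each difference between temperatures was also computed. From 16 to 29 °C the insertion-line difference moved by 1.03 ± 0.20 for ELIP1 and 1.65 ± 0.25 for ELIP2, towards wild type, and by -0.96 ± 0.13 for OHP1 and -0.38 ± 0.08 for OHP2, away from it. In the S364P line it moved by 0.24 ± 0.20 for ELIP1, 0.01 ± 0.25 for ELIP2, -1.30 ± 0.13 for OHP1 and -0.75 ± 0.08 for OHP2. The OHP genes therefore moved away from wild type in both lines. The ELIP differences at 29 °C are between levels of 2.59 TPM or less, where the added 1 counts most, and in the S364P line their direction of change turned with the scale. The ratio of wild-type to S364P means went from 1.58 at 16 °C to 1.85 at 29 °C for ELIP1 and from 1.95 to 3.03 for ELIP2, away from wild type, and with a pseudocount of 0.1 the differences at 29 °C were -0.78 and -1.55, larger in size than at 16 °C. In the insertion line these ratios went from 2.82 to 2.01 for ELIP1 and from 6.47 to 3.30 for ELIP2, towards wild type as on the log2(TPM + 1) scale.

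Between temperatures the ELIP genes spanned a far wider range than the OHP genes. From 16 to 22 °C, which is also from 8 to 16 h of Zeitgeber time, the wild-type difference was -4.71 ± 0.14 for ELIP1 and -3.34 ± 0.17 for ELIP2, against -0.20 ± 0.10 for OHP1 and -0.19 ± 0.06 for OHP2. ELIP1 had a mean 34.0 times higher at 16 °C and ELIP2 10.7 times, while OHP1 was 1.15 times and OHP2 1.14 times higher. In the S364P line the same step was -4.67 ± 0.14, -4.79 ± 0.17, -0.70 ± 0.10 and -0.49 ± 0.06 for ELIP1, ELIP2, OHP1 and OHP2, and 0% of tested genes had a lower value than ELIP2. In the insertion line it was -4.36 ± 0.14, -3.68 ± 0.17, -0.93 ± 0.10 and -0.57 ± 0.06. All 4 genes were lower in every 22 °C library of each genotype, beside 18.5% of tested genes in wild type, 27% in the S364P line and 17.7% in the insertion line.

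From 22 to 29 °C the median of all tested genes was itself 0.12 in wild type, 0.22 in the S364P line and 0.19 in the insertion line, and close to 0 with median-of-ratios scaling. Relative to that median, the wild-type step was -0.97 for ELIP1, -2.35 for ELIP2, -0.72 for OHP1 and -0.56 for OHP2. In the S364P line it was -0.87, -1.01, -1.63 and -1.11, and in the insertion line -0.37, -0.43, -1.02 and -0.62. The steps from 16 to 22 °C given above are not relative to the median, which was 0.09 in wild type and 0.07 in each mutant for that step. The 29 °C libraries lay below the 22 °C libraries for all 4 genes in wild type (13% of tested genes) and in the S364P line (11.5%), and for the OHP genes alone in the insertion line (10.2%), where the ELIP libraries overlapped.

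The balance within each pair also differed between groups. ELIP2 was at 1.63 ± 0.02 times the TPM of ELIP1 in wild type at 16 °C (SD, n = 3), at 1.32 ± 0.15 times in the S364P line and at 0.73 ± 0.17 times in the insertion line. The insertion line at 16 °C was the only group of the 9 in which all 3 libraries had less ELIP2 than ELIP1. In wild type at 22 °C the ratio was 5.38 ± 0.97, the highest of the 9 groups, against 1.35 ± 0.38 in the S364P line and 1.34 ± 0.52 in the insertion line. OHP1 was at 1.70 ± 0.11 times the TPM of OHP2 in wild type at 16 °C, 1.69 ± 0.11 at 22 °C and 1.51 ± 0.09 at 29 °C. In the S364P line that ratio was 1.80 ± 0.07, 1.56 ± 0.08 and 1.09 ± 0.13, and in the insertion line 1.56 ± 0.13, 1.21 ± 0.10 and 0.92 ± 0.05. The ratio was lowest at 29 °C in each genotype, and the insertion line at 29 °C was the only group of the 9 with less OHP1 than OHP2 in all 3 libraries.

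Summed, the ELIP pair went from 271 ± 22 TPM in wild type at 16 °C to 3.74 ± 0.36 TPM at 29 °C, and the OHP pair from 867 ± 9.1 to 518 ± 14 TPM. OHP transcripts therefore outnumbered ELIP transcripts in every group mean.

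Genes whose pattern was most like that of each member were ranked by Pearson's r of log2(TPM + 1) over the 27 libraries among the 15218 genes averaging 5 TPM or more. The libraries share group means, time of day and scaling, so r describes these libraries and has no p. ELIP1 was most like LHCB4.3, a minor photosystem II antenna gene (r = 0.984), followed by the RCC1-family gene AT3G55580 (0.977), BAM2 for a beta-amylase (0.974), FIB2 for fibrillarin (0.969) and the assembled locus MSTRG.4797 (0.968). LHCB4.3 was at 79.9 TPM in wild type, 62.1 TPM in the S364P line and 51.8 TPM in the insertion line at 16 °C. Within the 9 libraries of 1 temperature, LHCB4.3 gave r = 0.946, 0.821 and 0.661 at 16, 22 and 29 °C, while BAM2 gave 0.235, 0.480 and -0.288, so the likeness of BAM2 came from levels between temperatures.

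ELIP2 was most like AT3G55580 (r = 0.984), DFR for dihydroflavonol reductase of anthocyanin synthesis (0.981), the alpha/beta-hydrolase gene AT4G36530 (0.979), FAH1 for ferulate 5-hydroxylase of phenylpropanoid synthesis (0.975) and the sucrose phosphate phosphatase gene AT2G35840 (0.975). DFR had 26.5, 15.1 and 4.12 TPM at 16 °C in wild type, the S364P line and the insertion line, and gave r = 0.971, 0.969 and 0.955 within 16, 22 and 29 °C. ELIP1 and ELIP2 gave r = 0.959 with each other, the 13th place for ELIP2 among genes like ELIP1 and the 43rd for ELIP1 among genes like ELIP2. Over the 27 libraries each ELIP gene thus had closer patterns in the table than that of its paralogue. Within 16, 22 and 29 °C the pair gave r = 0.967, 0.919 and 0.901. LHCB4.3 was less like ELIP1 at each temperature (0.946, 0.821 and 0.661), and AT3G55580 was less like it at 16 °C alone (0.914, 0.933 and 0.906). DFR was closer to ELIP2 than ELIP1 was at each temperature.

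OHP2 was most like HCF244, the gene of the partner protein of the OHP1 and OHP2 complex, at r = 0.994. HCF244 had 168 to 178 TPM in wild type at 16 °C and a mean of 41.9 TPM in the insertion line at 29 °C, and its r with OHP2 was 0.968, 0.998 and 0.993 within the 9 libraries at 16, 22 and 29 °C. Next came AT2G34460 (0.992), PSBO2 of the oxygen-evolving complex (0.991), STH for the B-box factor BBX25 (0.991) and OHP1 (0.990). OHP1 was most like AT5G42070 (0.991), the rhodanese-family gene AT4G27700 (0.990), OHP2 (0.990), AT2G04039 (0.989) and PSBO2 (0.989), and HCF244 was 15th (0.985). The 2 OHP genes and HCF244 therefore kept nearly the same pattern over the 27 libraries, while r between an ELIP and an OHP gene was 0.732 to 0.860. Within the 9 libraries of 1 temperature that contrast was smaller: r between an ELIP and an OHP gene was 0.872 to 0.956, and between OHP1 and OHP2 0.956 to 0.983. The 5 names depend on how likeness was measured: over the 9 group means 2 of 5 were shared for ELIP1, OHP1 and OHP2 and 1 of 5 for ELIP2.

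**Figure D3:**
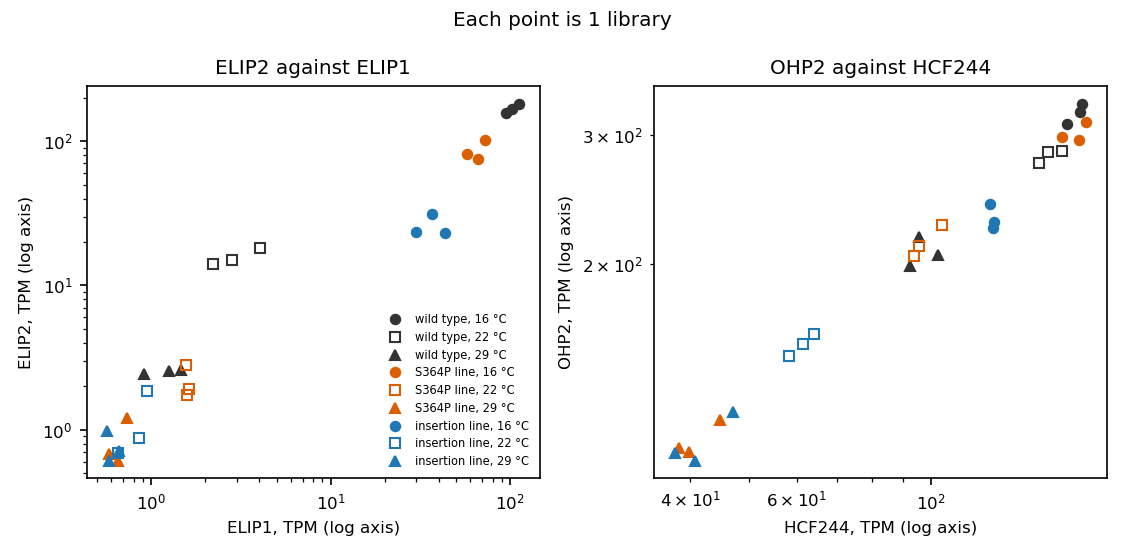
ELIP2 against ELIP1 (left) and OHP2 against HCF244 (right), in TPM on log axes; each point is 1 of 27 libraries, coloured by genotype and shaped by temperature. OHP2 and HCF244 lie along 1 line (r = 0.994 on the log2(TPM + 1) scale), while wild type at 22 °C lies above the other ELIP libraries, at an ELIP2 to ELIP1 ratio of 5.38.

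Gene lists around these 4 genes were then counted, with p-values adjusted by Benjamini-Hochberg over all 21396 tested genes in limma and calls at adjusted p under 0.05. The lists were chosen with earlier results of these libraries known and hold none of the 4 genes. In the insertion line 10.7% of tested genes were called lower at 16 °C, 18.4% at 22 °C and 13.5% at 29 °C, and in the S364P line 0.738%, 19.9% and 13.7%. The shares called higher were 15.5%, 24.6% and 24.8% in the insertion line and 0.71%, 17.3% and 24.5% in the S364P line. At 29 °C 64.8% of the insertion-line calls and 64.2% of the S364P calls were higher, against 47.0% and 51.4% with median-of-ratios scaling. The 158 genes called lower in the S364P line at 16 °C became 81 to 128 when any 1 of the 6 libraries was left out, 259 when only the 2 groups were fitted, and 223 with a pseudocount of 5. The median difference of all tested genes lay between -0.03 and 0.09 in these 6 comparisons.

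Genes for photosystem II assembly and repair, the process the OHP proteins serve, were called lower in 11, 18 and 19 of 20 in the insertion line at 16, 22 and 29 °C. In the S364P line 0, 11 and 19 of 20 were called lower, and none of the 20 was called higher in any of the 6 comparisons, nor was any at an unadjusted limma p under 0.05. At that unadjusted level 1 of 20 was lower in the S364P line at 16 °C. Median differences of the list were -0.18, -0.53 and -0.59 in the insertion line and -0.02, -0.26 and -0.48 in the S364P line. HCF244 fell by 0.46 ± 0.07 (adjusted p = 2.7e-05), 1.35 ± 0.07 (8.01e-13) and 1.2 ± 0.07 (8.13e-12) in the insertion line at 16, 22 and 29 °C. In the S364P line its difference was -0.00 ± 0.07 at 16 °C (adjusted p = 1), and it fell by 0.68 ± 0.07 (1.16e-07) and 1.23 ± 0.07 (5.84e-12) at 22 and 29 °C. HCF173, which aids translation of the D1 transcript, fell by 0.91 ± 0.06 and 1.13 ± 0.06 in the insertion line at 16 and 29 °C. PSB28, a photosystem II assembly factor, fell by 1.56 ± 0.06 in the insertion line and 1.48 ± 0.06 in the S364P line at 29 °C. FTSH8, a subunit of the protease that removes damaged D1, fell by 1.26 ± 0.08 in the insertion line at 16 °C.

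Of 6 other LHC-like genes, 2, 6 and 5 were called lower in the insertion line at 16, 22 and 29 °C, and 0, 3 and 5 in the S364P line; 1 of 6, PSBS, was called higher at 16 °C in each line. At an unadjusted limma p under 0.05, 2 were lower in the S364P line at 16 °C. At 29 °C SEP1, a stress-enhanced relative of the ELIPs, fell by 1.0 ± 0.08 (adjusted p = 1.01e-09) in the insertion line and 0.84 ± 0.08 (1.79e-08) in the S364P line. SEP2 was not called at 29 °C, with a difference of 0.00 ± 0.09 (adjusted p = 0.988) in the insertion line and 0.01 ± 0.09 (0.928) in the S364P line. LIL3.1, which anchors enzymes of chlorophyll synthesis, fell by 1.16 ± 0.07 and 0.99 ± 0.07 in these lines at 29 °C, and its relative LIL3.2 fell by 0.82 ± 0.07 and 0.64 ± 0.07. Some smaller differences at 22 °C depended on 1 library or on the setting. In the insertion line SEP1 (-0.23) lost its call without wild-type replicate 2 or insertion-line replicate 2 or 3, with an adjusted p of up to 0.0946, and also with median-of-ratios scaling (0.0585) and with only the 2 groups fitted (0.0528). SEP2 (-0.31) lost it without wild-type replicate 1 (adjusted p = 0.0576), and LIL3.2 (-0.21) without wild-type replicate 3 (0.0581) or insertion-line replicate 3 (0.0858), or with only the 2 groups fitted (0.0778). In the S364P line LIL3.1 (-0.24) lost it without wild-type replicate 2 (0.0904) or S364P replicate 1 (0.0868), and with median-of-ratios scaling (0.0686), quantile normalization (0.128) or only the 2 groups fitted (0.0755).

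In the photoprotection and high-light list, 9, 13 and 15 of 21 tested genes were called lower in the insertion line at 16, 22 and 29 °C and 0, 11 and 14 in the S364P line, where the 0 was 5 at an unadjusted limma p under 0.05. In all, 2 of 21 were called higher in each insertion-line comparison and 1, 2 and 2 in the S364P line; the 2 at 16 °C became 1 without wild-type replicate 1 or 2 or insertion-line replicate 3, with quantile normalization or with only the 2 groups fitted, and 0 with median-of-ratios scaling. The 1 in the S364P line at 16 °C became 0 with either scaling. The 0 called lower there became 1 with a pseudocount of 5 or with only the 2 groups fitted. ZEP, the zeaxanthin epoxidase of the xanthophyll cycle, fell by 1.23 ± 0.07, 1.93 ± 0.07 and 1.42 ± 0.07 in the insertion line at 16, 22 and 29 °C. KEA3, a thylakoid potassium and proton exchanger, fell by 1.67 ± 0.08 and 1.43 ± 0.08 in the insertion line at 22 and 29 °C. BCH2, a beta-carotene hydroxylase, fell by 2.44 ± 0.09 and 1.73 ± 0.09 in the insertion line at 16 and 22 °C. PSBS, the LHC relative needed for rapid energy dissipation, rose at 16 °C by 0.19 ± 0.05 in the insertion line (adjusted p = 0.00609) and 0.27 ± 0.05 in the S364P line (0.00245). Both calls ended with median-of-ratios scaling (adjusted p = 0.149 and 0.0726), and the second also with quantile normalization (0.0729).

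Regulators of light signalling were called in both directions: 10 higher and 10 lower of 24 tested in the insertion line at 16 °C, 10 and 12 at 22 °C and 10 and 10 at 29 °C. In the S364P line the counts were 3 and 2, 9 and 11, and 10 and 11, where the first 2 lower calls became 1 with a pseudocount of 0.1. HYH went from 169 to 193 TPM in the wild-type libraries at 16 °C to 38.1 to 47.1 TPM in the insertion line. It fell there by 2.08 ± 0.18 at 16 °C (adjusted p = 8.89e-09), 3.24 ± 0.18 at 22 °C (2.86e-12) and 4.11 ± 0.18 at 29 °C (7.98e-14). In the S364P line the HYH difference was -0.27 ± 0.18 at 16 °C (adjusted p = 0.798), and it fell by 1.82 ± 0.18 at 22 °C (6.97e-08) and 3.6 ± 0.18 at 29 °C (7.45e-13). HY5 fell by 1.2 ± 0.13, 1.1 ± 0.13 and 1.59 ± 0.13 in the insertion line, and by 0.89 ± 0.13 and 1.39 ± 0.13 in the S364P line at 22 and 29 °C. At 16 °C its S364P difference was -0.20 ± 0.13 (adjusted p = 0.78). The UV-B photoreceptor gene UVR8 rose by 0.31 ± 0.05 to 0.50 ± 0.05 in the 3 insertion-line comparisons. In the S364P line its difference was 0.01, 0.46 and 0.55 at 16, 22 and 29 °C. PIF4, a bHLH factor of growth in shade and warmth, rose in all 6 comparisons, by 4.55 ± 0.09 in the insertion line and 3.09 ± 0.09 in the S364P line at 16 °C.

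Genes induced by UV-B light through HY5, as the ELIP genes are, were the list with the lowest median in 4 of the 6 comparisons; at 29 °C it was chlorophyll synthesis in both lines. Of 11 genes, 10, 11 and 8 were called lower in the insertion line at 16, 22 and 29 °C and 6, 11 and 7 in the S364P line; 1 was called higher in each line at 29 °C, and 0 with a filter at 5 TPM. Median differences were -1.32, -1.55 and -0.91, and -0.51, -1.2 and -0.93. At 16 °C in the S364P line FLS1, the flavonol synthase gene, fell by 0.98 ± 0.14 (adjusted p = 0.000117), CHS for chalcone synthase by 0.93 ± 0.14 (0.000391) and F3H for flavanone 3-hydroxylase by 0.88 ± 0.11 (1.36e-05). The 6 lower calls there were 3 to 8 under other settings. SIG5, a chloroplast sigma factor induced by blue and UV-B light, fell by 2.72 ± 0.12 in the insertion line at 16 °C and 1.56 ± 0.12 at 29 °C.

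Chlorophyll synthesis genes were called lower in 12, 16 and 17 of 18 in the insertion line at 16, 22 and 29 °C and in 0, 13 and 16 in the S364P line, with 1, 2 and 0 called higher in the first and 0, 2 and 0 in the second. In the S364P line at 16 °C, 1 was lower and 1 higher at an unadjusted limma p under 0.05, and none was higher at 29 °C in either line. The 2 called higher at 22 °C became 1 without wild-type replicate 1 or 3 or insertion-line replicate 1 or 2 in the insertion line, and without wild-type replicate 1 or S364P replicate 2 in the S364P line. They also became 1 in each line with median-of-ratios scaling and with only the 2 groups fitted. GUN4, which activates magnesium chelatase, fell by 1.39 ± 0.05, 2.03 ± 0.05 and 2.21 ± 0.05 in the insertion line. CAO, the chlorophyll b synthesis enzyme, fell by 1.26 ± 0.06, 1.91 ± 0.06 and 1.91 ± 0.06.

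Antenna genes, close relatives of the ELIPs and markers of green tissue, did not as a list follow the ELIP genes at 16 °C. LHCB4.3, the antenna gene most like ELIP1, did, at 79.9, 62.1 and 51.8 TPM in wild type, the S364P line and the insertion line. In the S364P line 10 of 21 rose at 16 °C and 13 at 22 °C, against 0 (1 at an unadjusted limma p under 0.05) and 3 that fell, and at 29 °C 4 rose and 12 fell. In the insertion line 8 rose and 7 fell at 16 °C, 5 and 8 at 22 °C, and 3 and 14 at 29 °C, and the 8 became 5 and the last 3 became 1 with median-of-ratios scaling. LHCA4 rose by 0.94 ± 0.10 and LHCB3 by 0.98 ± 0.10 in the S364P line at 16 °C, where the ELIP genes were lower. LHCB2.1, a major antenna gene, fell by 2.34 ± 0.06 in the insertion line and 2.31 ± 0.06 in the S364P line at 29 °C. Summed antenna transcripts at 16 °C were 53341 to 56566 TPM in wild type, 71521 to 73096 TPM in the S364P line and 64775 to 74712 TPM in the insertion line.

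**Figure D4:**
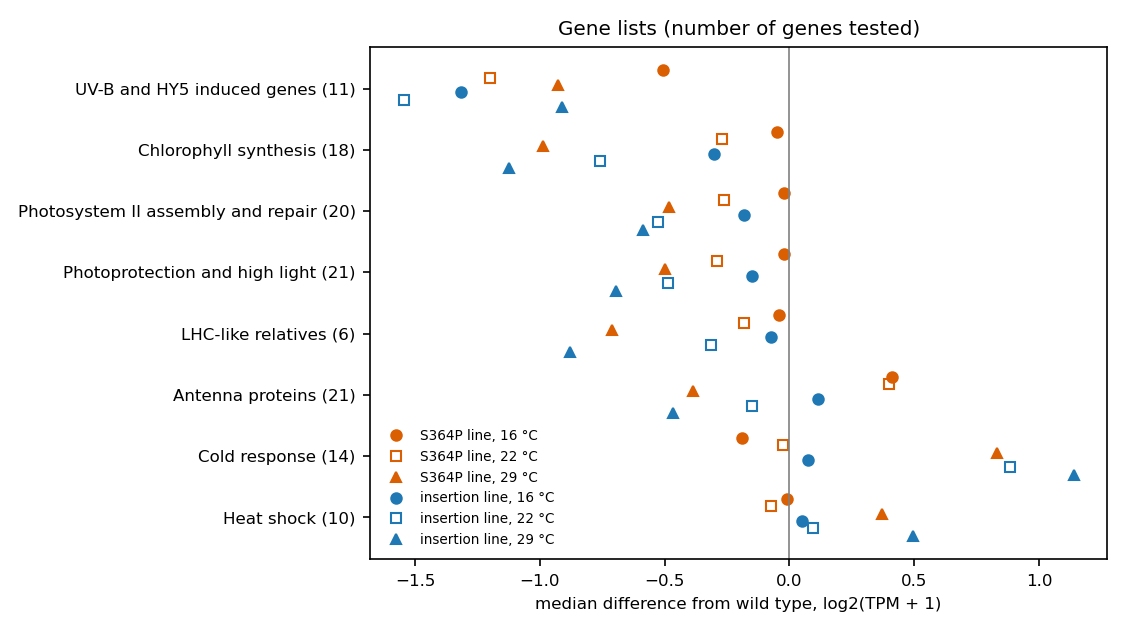
Median difference from wild type in log2(TPM + 1) of the tested genes of 8 lists, in the S364P line and the insertion line at 16, 22 and 29 °C; no error is drawn, and each point is the median of the number of genes given beside the list name. UV-B and HY5 induced genes lie between -0.51 and -1.55 in all 6 comparisons, while antenna genes lie at 0.41 and cold response genes at -0.19 in the S364P line at 16 °C.

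Cold response and heat shock genes were counted too. Of 14 tested cold response genes, 5, 9 and 10 were called higher and 3, 0 and 0 lower in the insertion line at 16, 22 and 29 °C, and 0, 5 and 9 higher and 2, 3 and 2 lower in the S364P line. At an unadjusted limma p under 0.05, 1 was lower in the insertion line at 22 °C and 0 at 29 °C, and 1 was higher in the S364P line at 16 °C. The lower calls of the S364P line became 1 at 16 °C without wild-type replicate 2 or 3 or S364P replicate 2, 1 at 22 °C without S364P replicate 2, and 0 at 29 °C without wild-type replicate 1 or 3 or S364P replicate 2 or 3. They also became 1 at 16 °C with a pseudocount of 0.1 or a filter at 5 TPM, and 1 at 29 °C with a pseudocount of 5, that filter or only the 2 groups fitted. In the insertion line the 3 lower at 16 °C became 5 without a filter, and the 0 at 22 °C became 1 with only the 2 groups fitted. COR413IM1, a chloroplast envelope cold-regulated gene, rose by 2.69 ± 0.19 in the insertion line at 16 °C, where the ELIP genes were lower. COR27 rose there by 3.18 ± 0.15, while COR15A and COR15B were lower as the ELIP genes were, with differences of -1.82 and -0.79. In the S364P line at 16 °C the differences of COR15A and COR15B were -1.63 and -0.61. Of 10 tested heat shock genes, 0, 0 and 4 were called higher and 0, 1 and 0 lower in the insertion line, and 0, 0 and 3 higher and 0, 2 and 0 lower in the S364P line. The heat shock counts of 0 stayed 0 at an unadjusted limma p under 0.05. The 4 became 7 without insertion-line replicate 2, and the 2 became 1 without wild-type replicate 2 or 3 or S364P replicate 1 or 2. With only the 2 groups fitted the 4 became 2. With a pseudocount of 5, a filter at 5 TPM or quantile normalization the 2 became 1, and with that filter the 1 in the insertion line became 0. Of 15 clock genes, 10 were called higher and 5 lower in the insertion line at each temperature, and 6 and 0, 10 and 4, and 10 and 5 in the S364P line, where the 0 was 1 at an unadjusted limma p under 0.05 and 1 by adjusted p with a pseudocount of 5, a filter at 5 TPM, only the 2 groups fitted or a replicate block; LHY, a morning clock factor, fell by 4.07 ± 0.11 in the insertion line at 16 °C. Of 17 root markers, 0 were called higher in any of the 6 comparisons with all libraries, and 2, 7 and 2 were called lower in the insertion line and 0, 10 and 7 in the S364P line. At an unadjusted limma p under 0.05, 1 was higher in the S364P line at 22 °C, 0 were higher in the other comparisons and 0 were lower in the S364P line at 16 °C. The 7 became 12 without S364P replicate 1 and 4 without S364P replicate 3 or wild-type replicate 1; the 2 at 16 °C became 1 without wild-type replicate 3 or insertion-line replicate 2, and the 2 at 29 °C without replicate 1 of either genotype. With only the 2 groups fitted the 7 became 4 and each 2 became 1, as the 2 at 29 °C also did with a pseudocount of 5. Without wild-type replicate 2, with a pseudocount of 0.1, without a filter or with quantile normalization, 1 root marker was called higher in the S364P line at 22 °C.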

How the data were processed

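The deposited table holds 1 TPM column for each of 27 libraries and a mean TPM column for each of 9 groups, made by the authors; per the file headers it also gives a gene length. For the quantifier, the aligner and the genome build the sources used here give no name. The authors' means of the 4 genes were within 3.3e-05 TPM of means recomputed from 3 libraries. For the insertion line at 16 °C, titles and descriptions number the replicates differently, so 2 columns are tied to the group alone. 1 emptied table line was not analysed here. TPM keeps no depth, so precision rests on the spread of 3 libraries.

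Values were transformed to log2(TPM + 1). The 21396 genes that reached 1 TPM in 3 or more libraries were fitted with limma 3.58.1 in R 4.3.3, with 9 group means in 1 fit and variances moderated along a trend (18 residual and 3.17 prior degrees of freedom). Tests were two-sided, with Benjamini-Hochberg adjustment over all tested genes in each of 15 comparisons. Every adjusted p in the text is from this test, or from its refit under the alternative named beside it. The main fit was tried on simulated data for the insertion line against wild type at 16 °C. It recovered 54% of added changes of 0.5 log2 and 91% of those of 1, and 4 of 149 calls were false. In the libraries themselves this comparison had 3318 genes called higher and 2283 called lower. The share of false calls among these was not tested. The 4 members and the 11 lists (180 genes, 176 tested) were chosen with earlier results of these data known, so members carry no p. Named genes were the members, the 5 genes most like each, at most 3 called genes per list and comparison with the largest difference, and HY5, HYH, UVR8, CRY1, HCF244, SEP1, SEP2, LIL3.1, LIL3.2 and PSBS. Promoters and gene models were read from the TAIR10.1 RefSeq assembly.

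Alternatives were a block on the replicate number, leaving out each library, fitting only the groups compared, scaling by median of ratios or by quantiles, pseudocounts of 0.1 and 5, filtering at 5 TPM or not at all, and, for likeness, 9 group means or a mean of 1 TPM. Other steps used Python 3.11.15, pandas 2.3.3, NumPy 2.4.6, Biopython 1.88 and matplotlib 3.10.9.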

Additional observations from a re-analysis of the deposited data

Results flagged for a closer look

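For 8 of the 66 list genes that the rule for named genes picks, every library of a mutant lay on one side of wild type at 1 temperature and on the other side at another; the difference between the temperatures was not tested, and time of day changed with temperature. BCH2, the beta-carotene hydroxylase gene, differed from wild type by -2.44 and -1.73 log2 in the insertion line at 16 and 22 °C and by 0.59 at 29 °C. In the S364P line BCH2 differed by -0.80 at 22 °C and 0.70 at 29 °C. LHCB2.1, a major antenna gene, differed by 0.41 in the S364P line at 16 °C and by -2.31 at 29 °C. PSBS, the gene for the energy dissipation protein, differed by 0.19, -0.31 and -0.94 in the insertion line at 16, 22 and 29 °C, and by 0.27 and -0.78 in the S364P line at 16 and 29 °C. LHCB2.2, another major antenna gene, differed by 0.59 at 16 °C and -1.55 at 29 °C in the S364P line. PORB, a protochlorophyllide oxidoreductase gene, differed by 0.44, 1.09 and -0.16 in the insertion line at 16, 22 and 29 °C. The cold response gene COR15A differed by -1.82, 1.12 and 0.69 in the insertion line at these temperatures, and its relative COR15B by -0.79 at 16 °C and 0.14 at 29 °C. IRT1, the iron transporter gene among the root markers, differed by 0.49, -3.31 and -2.46 in the insertion line and by 0.52, -3.37 and -2.96 in the S364P line at 16, 22 and 29 °C. None of the 4 ELIP and OHP genes showed such opposite sides, and nothing is read from that because the share among all tested genes was not computed.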

How the results depend on the processing

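Of 332 member differences from wild type recomputed under the alternatives, 304 moved by less than the gene's residual SD between libraries in the fit. None of the values below changed sign. The OHP1 difference of the S364P line at 16 °C, close to 0, did so with either scaling and without wild-type replicate 2, and is counted among the 304. With a pseudocount of 0.1, ELIP1 differed from wild type by -1.74 and -0.88 in the insertion line at 22 and 29 °C and by -0.84 and -0.78 in the S364P line, and ELIP2 by -3.78 and -1.62 and by -2.83 and -1.55. With a pseudocount of 5, ELIP1 gave -0.46, -0.15, -0.28 and -0.13 and ELIP2 -1.76, -0.38, -1.53 and -0.37 in the same order; low values weigh more in the first and less in the second by construction. Median-of-ratios scaling gave OHP2 -0.96 in the insertion line and -0.91 in the S364P line at 29 °C. Quantile normalization gave OHP2 -0.40 and -0.94 in the insertion line at 16 and 29 °C, OHP2 -0.016, -0.30 and -0.91 in the S364P line at 16, 22 and 29 °C, and OHP1 -1.69 in the insertion line at 29 °C. Leaving out each library gave ranges of -1.28 to -0.95 for ELIP1 and -3.23 to -2.85 for ELIP2 in the insertion line at 22 °C, -0.76 to -0.43 for ELIP1 in the S364P line at 22 °C, and -0.92 to -0.81 for OHP2 in the insertion line at 29 °C. List genes called lower in the S364P line at 16 °C were 10, and 6 with a pseudocount of 0.1; the cause was not tested.

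Of 144 levels, 125 moved by less than the SD. With median-of-ratios scaling ELIP1 was at 114 and 72.9 in wild type and the S364P line at 16 °C, 1.66 and 0.576 in the S364P line at 22 and 29 °C, and 0.52 in the insertion line at 29 °C, in scaled TPM. ELIP2 was at 185 and 2.34 in wild type at 16 and 29 °C. OHP1 was at 602 and 289 in wild type at 16 and 29 °C, 603 and 347 in the S364P line at 16 and 22 °C, and 90.8 in the insertion line at 29 °C. OHP2 was at 354, 289 and 193 in wild type at 16, 22 and 29 °C, 336 and 102 in the S364P line at 16 and 29 °C, and 249 and 98.7 in the insertion line at 16 and 29 °C. Of the 5 genes most like each member, 2, 1, 2 and 2 were shared for ELIP1, ELIP2, OHP1 and OHP2 over 9 group means, and 3, 3, 5 and 5 with a filter at a mean of 1 TPM.

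Same-numbered libraries correlated at -0.23 to 0.26 in their deviations, with no comparison in which all 3 pairs passed 0.1. With 3 libraries a group, this cutoff cannot decide whether the replicate numbers pair the samples. In wild type between 22 and 29 °C all 6 libraries were closest to their own number. Between the S364P line and wild type at 29 °C, 5 of 6 were. With the replicate number as a block, 21 list genes were called higher and 11 lower in the S364P line at 16 °C, against 20 and 10. The block could not be fitted for the insertion line at 16 °C, whose columns carry no settled numbers. The limit on all of this is 3 libraries a group of unknown depth.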
